A study of Homo sapiens with 12 samples.

Results

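The DEAD-box (DDX) and DEAH-box (DHX) genes encode RNA helicases, enzymes that use ATP to open RNA duplexes or to strip proteins from RNA. Most are named for a short stretch of the ATP-binding core, the DEAD or DEAH box. They work at nearly every step of an RNA's life, from ribosome assembly in the nucleolus and remodelling of the spliceosome to mRNA export, translation and decay, and most are expressed in all dividing cells. The genes described here are the rows of the expression table whose symbol is DDX or DHX followed by a number and, where present, letters. DDX58, DDX60, DDX60L and DHX58, which interferon induces, were left out and serve below as a contrast. The rule found 48 genes, 34 named DDX and 14 named DHX, among 4918 genes analysed here (symbols A1BG to FAM46B).

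RNA was sequenced from A375, an established human melanoma cell line, in 4 groups of 3 samples: vehicle-treated control cells, and cells given SB-3CT (an inhibitor of the gelatinases MMP2 and MMP9), IFNγ (interferon gamma) or both for 24 h. Every group was the same line with no genetic change. The values are FPKM, fragment counts divided by transcript length and by the mapped fragments of the library, deposited as log2(FPKM + 1). Nothing in the labels says that the 3 samples of a group were separate cultures, so p-values measure only the spread among these samples, which may be technical. The comparison of SB-3CT + IFNγ with IFNγ asks what the inhibitor does in stimulated cells, that of SB-3CT with control asks the same at rest, and that of IFNγ with control asks for the effect of the cytokine.

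Of 5 melanoma and neural crest markers, 4 (CSPG4, ERBB3, EDNRB, CDH19) had a mean of at least 1 FPKM and DCT did not. Their summed level ran from 115 to 118 FPKM in control, was lower after either agent (89.3 to 98.6 for SB-3CT, 87.9 to 92.5 for IFNγ) and was lowest, at 62.4 to 68.0, when both were given. Most of this sum, taken on the deposited scale, was CSPG4 and ERBB3 (48.5 and 57.1 FPKM in control). EDNRB went another way, at 5.83 FPKM in control, 4.57 with SB-3CT, 6.67 with IFNγ and 4.99 with both. The other markers were lower with either agent and lowest with both. The part of the marker levels in the changes below was not tested. Markers of fibroblasts, leukocytes and endothelium summed to at most 1.33, 0.349 and 0.67 FPKM in any sample, and those of epithelium to between 8.20 and 12.5 FPKM, nearly all CLDN4. In bulk RNA, fewer cells of a kind and less RNA per cell cannot be told apart. Sequencing depth relative to the control mean lay between 86.8% and 149%, and absolute depth is unknown.

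The DEAD and DEAH boxes themselves show how differently the members spell the same residues, and base composition returns below beside the changes. In the coding sequence of the main GENCODE transcript, codons for the DEAD box stood in frame in 27 DDX genes and in DHX29, and codons for the DEAH box in 7 DHX genes and in DDX11. A match is a run of codons and does not place the run in the ATP-binding core: in DHX29 the codons before it are for glycine, arginine and lysine, not for the mostly hydrophobic residues that precede the boxes shown here. Neither was found in 11 genes, among them DDX39A, DDX21, DDX50, DHX9 and DHX36, and the pseudogene DDX12P has no annotated coding sequence. The windows below run 9 bases to each side of the box (coding strand, GRCh37, capitals mark the 4 codons of the box), first for 5 genes of AT-rich transcripts and then for 3 of GC-rich transcripts.
DDX3X (chrX:41204437-41204466, plus strand): ttggtgttaGATGAAGCTGATcggatgttg
DDX46 (chr5:134126192-134126221, plus strand): gttgttttaGATGAAGCAGACagaatgttt
DDX5 (chr17:62499354-62499383, minus strand): cttgtccttGATGAAGCAGATagaatgctt
DDX17 (chr22:38890939-38890968, minus strand): cttgtattgGACGAAGCTGACagaatgctt
DHX15 (chr4:24557937-24557966, minus strand): ataattcttGATGAGGCTCATgagaggaca
DDX41 (chr5:176940734-176940763, minus strand): ctggccctgGACGAGGCTGACcgcatgatc
DDX28 (chr16:68056230-68056259, minus strand): ttggtgttgGATGAGGCAGACacactgctg
DHX37 (chr12:125455905-125455934, minus strand): gtgatcatcGACGAGGCCCACgagaggagc
G or C filled 10 of the 30 bases in DDX46 and 13 in DDX3X, against 20 in DDX41 and 19 in DHX37.

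In control cells the members were well expressed. Their median level was 15.9 FPKM, against 3.53 FPKM over all genes, with 3 members over 100 FPKM, 29 from 10 to 100, 13 from 1 to 10 and 3 under 1. The highest by far was DDX39A, an mRNA export helicase, at 240, 237 and 236 FPKM in the control samples. DDX49, a ribosome biogenesis factor, had 111, 103 and 110 FPKM there, and DDX5, a splicing and transcription cofactor also called p68, had 113, 112 and 119 FPKM. Their control levels were 115 ± 3.87 FPKM for DDX5 and 108 ± 4.20 FPKM for DDX49 (SD, n = 3), and the lowest DDX5 sample lay just above the highest DDX49 sample. DDX47, an rRNA-processing helicase, and DDX3X, a translation factor, came next by mean level over all 12 samples. EIF4A1, the cap-binding complex helicase that belongs to the same superfamily under another name, stood at 1224, 1252 and 1253 FPKM in control cells.

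At the other end, DDX25, a helicase of male germ cells, was above 0 in 2 of the 12 samples and at most 0.0498 FPKM. DDX26B, now called INTS6L, averaged 0.41 FPKM. This gene is counted here by its older symbol alone, and whether it is a helicase was not tested. DDX39B, the near-identical partner of DDX39A and normally abundant, was listed at 0.0269 to 0.17 FPKM. It lies in the major histocompatibility complex (chr6:31497996-31510225, hg19), where 9 of the 16 analysed genes of that region averaged under 1 FPKM, BAG6 (0.192) and CSNK2B (0.269) among them. The level of DDX39B is given here and no change is read from it. DDX19A and DDX19B, neighbours on chromosome 16, have the same 30 bases around the box, and like DDX11 with its pseudogene DDX12P they can share reads.

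**Figure D1:**
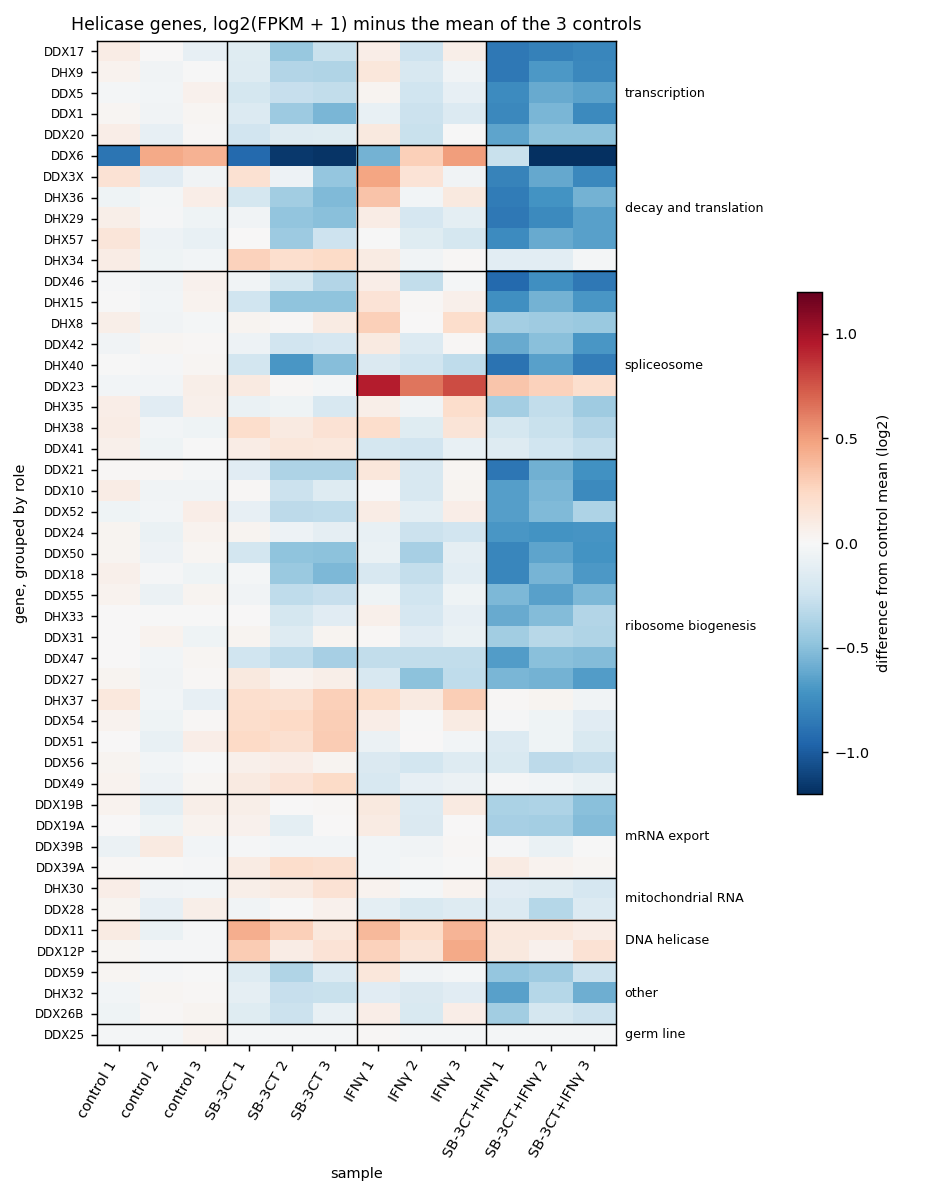
Values of the 48 helicase genes in each of the 12 samples (columns), as log2(FPKM + 1) minus the mean of the 3 control samples, with rows grouped by role and colours ending at ±1.2. The SB-3CT+IFNγ columns are the bluest for most genes on the deposited scale, DDX23 is red with IFNγ, and DDX6 changes colour within groups.

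When SB-3CT was added to IFNγ, helicase mRNAs of most roles were lower on the deposited scale, as were many other genes. There 36 of the 48 members were lower than with IFNγ alone, 0 were higher and 12 were not called (limma, Benjamini-Hochberg adjusted p under 0.05 over 4918 genes). Of all genes, 31.5% were lower and 6.41% higher, and among genes of at least 1 FPKM 42.7% were lower. The median change of the members was -0.45 on the log2 scale, against -0.09 over all genes and -0.20 over genes of at least 1 FPKM. Samples were also rescaled by the median of their gene-wise ratios (median-ratio scaling). This sets the median change of genes of at least 1 FPKM near 0 by construction (0.00). It therefore cannot tell a difference of scale from a broad fall, and the source of the general shift was not tested. After this scaling 25 members were lower and 2, DDX39A and DDX49, higher (16.5% and 15.5% of all genes). Of the 3177 genes of at least 1 FPKM, 721 were lower and 723 higher. The members' median was then -0.24, and the lower members were spliceosomal, ribosome biogenesis, mRNA export, decay and translation, and transcription helicases. Of the DNA, mitochondrial, germ line and remaining members 0 were among them. Those lists hold only 2, 2, 1 and 3 genes, so this is not read as a difference between roles. After quantile normalization 21 members were lower and 0 higher (14.5% and 11% of all genes). With 3 samples against 3 an exact permutation test of a single gene cannot give a p below 0.1, so calls of single genes rest on the spread that limma estimates across genes.

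On the deposited scale the 3 SB-3CT + IFNγ samples were the lowest 3 of all 12 in 29 of the 48 members (60.4%). The same held for 24.1% of all genes and for 33.6% of those of at least 1 FPKM. The summed level of the 48 members was 1551, 1487 and 1534 FPKM in control and 1516, 1439 and 1429 FPKM with SB-3CT. It was 1570, 1414 and 1510 FPKM with IFNγ but 1173, 1202 and 1154 FPKM with both. On that scale the combination lay below every other sample. Median-ratio scaling divides the combination samples by 0.882, 0.881 and 0.867, and the other samples by 0.986 to 1.084. The sums here were not rescaled, so part of their difference goes with the scale. DDX39A and DDX49 together made up 22.3% of the family's sum with IFNγ and 29.9% with both.

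**Figure D2:**
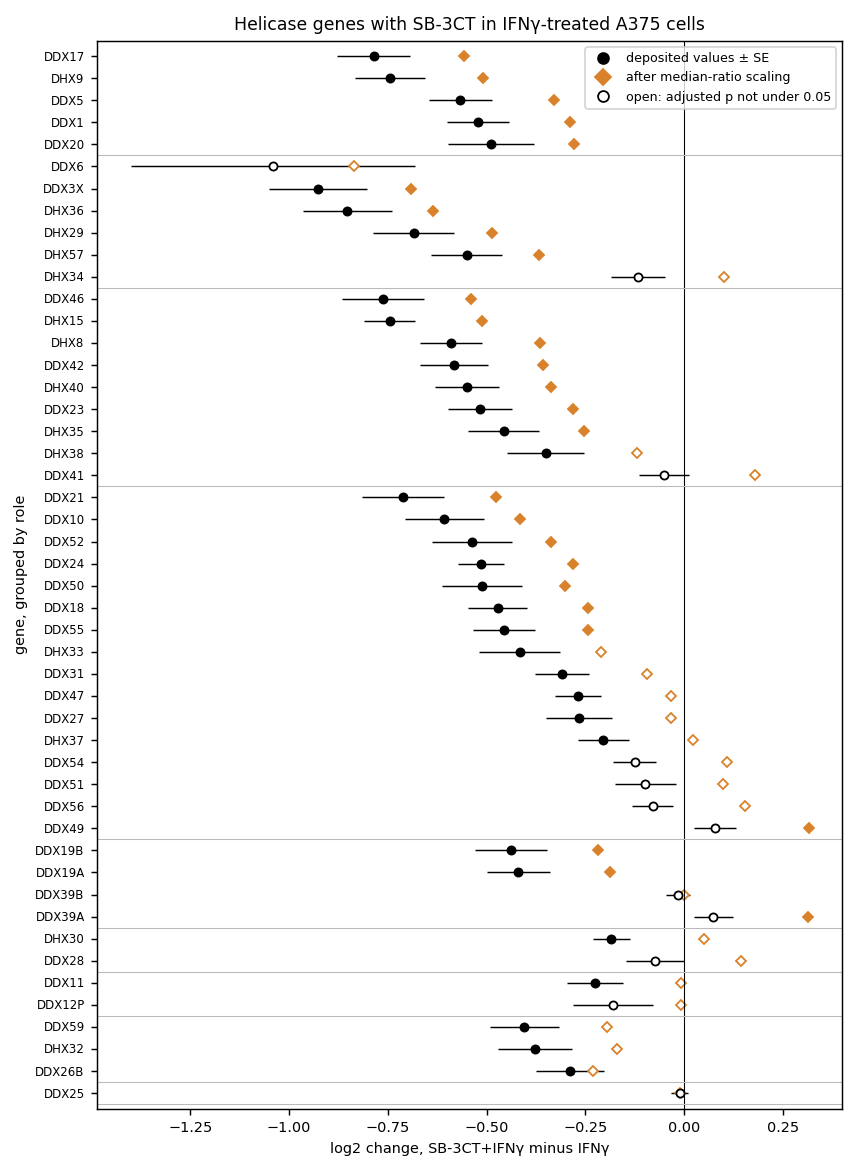
Log2 change (SB-3CT+IFNγ minus IFNγ) of each helicase gene, grouped by role, on the deposited scale (black circles with standard errors, 3 samples a group) and after median-ratio scaling (orange diamonds). Filled symbols have an adjusted p under 0.05, and 46 of 48 circles lie left of 0 while DDX39A and DDX49 lie to the right on both scales and are called only after scaling.

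The steepest called fall was in DDX3X, an X-linked helicase that promotes translation of mRNAs with structured leaders. Its level was 87.4, 70.4 and 61.2 FPKM with IFNγ and 35.5, 40.8 and 36.5 FPKM with both. The combination samples all lay below the lowest IFNγ sample, although the IFNγ samples themselves spread widely. The log2 change was -0.93 (SE 0.12, adjusted p = 0.00254, limma), or -0.69 after median-ratio scaling. DHX36, which unwinds G-quadruplexes, belongs to the same group of decay, storage and translation helicases. It went from 18.5, 14.0 and 15.6 FPKM to 7.55, 8.29 and 9.32 FPKM, a log2 change of -0.85 (SE 0.11, adjusted p = 0.00245, limma). Of the 6 members of this group 4 were lower, beside 42.7% of genes of at least 1 FPKM, with a group median of -0.77. DHX29 (-0.68), which helps ribosomes scan structured leaders, and DHX57 (-0.55) were the others. DHX34, a nonsense-mediated decay factor, had a change of -0.12 and was not called.

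DDX6, the decapping activator of P-bodies, had the largest estimate of all members (-1.04, SE 0.36) but no call (adjusted p = 0.056, limma), since its samples split within groups. It was at 5.73, 15.9 and 15.5 FPKM in control and 5.45, 4.51 and 4.44 FPKM with SB-3CT. It was at 7.33, 14.0 and 16.5 FPKM with IFNγ but 9.27, 3.91 and 3.99 FPKM with both. In control, with IFNγ and with both agents, replicate 1 was the sample that stood apart from the other 2. With SB-3CT alone all were low. The change passed the test with 1 of the 6 libraries left out, SB-3CT + IFNγ replicate 1 (-1.39, adjusted p = 0.0303, limma), and with each of the others left out it was between -0.83 and -1.36 (adjusted p = 0.0512 to 0.211, limma). With SB-3CT alone it passed only without control replicate 1 (-1.53, adjusted p = 0.00863, limma), and otherwise adjusted p was 0.145 to 0.245 (limma). What sets the low and high samples apart was not tested.

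All 5 helicases with broad roles in transcription and RNA processing were lower, beside 42.7% of genes of at least 1 FPKM. DDX17, the p72 paralog of DDX5, went from 30.8, 24.5 and 30.7 FPKM with IFNγ to 15.7, 16.2 and 16.6 FPKM with both (log2 change -0.79, SE 0.09, adjusted p = 0.00209, limma). DHX9, also called RNA helicase A, went from 60.3, 48.0 and 53.4 to 29.8, 33.7 and 31.6 FPKM (-0.74, SE 0.09, adjusted p = 0.00211, limma). Neither gene's groups overlapped, and the combination samples lay close together. DDX5 (-0.57), DDX1 (-0.52), which takes part in tRNA ligation, and DDX20 (-0.49), a component of the SMN complex, changed less. All 5 remained lower after median-ratio scaling, beside 721 of 3177 genes of at least 1 FPKM.

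Among the 9 spliceosomal helicases 8 were lower, beside 42.7% of genes of at least 1 FPKM, with a median of -0.55. DDX46 acts with the U2 snRNP when the branch site is chosen. It went from 22.1, 16.8 and 20.4 FPKM to 10.4, 12.1 and 11.0 FPKM (-0.76, SE 0.10, adjusted p = 0.00266, limma). DHX15, which takes spent spliceosomes apart, went from 75.2, 67.9 and 69.9 to 40.0, 44.9 and 40.9 FPKM (-0.75, SE 0.06, adjusted p = 0.00194, limma). In both genes the groups were separate, and DHX15 had the smallest error of the 6 steepest falls. DHX8, which releases mRNA from the spliceosome, changed by -0.59, and DHX38, a factor of the second splicing step, by -0.35. DDX41, a gene of late splicing complexes, had 21.8, 21.5 and 23.9 FPKM with IFNγ and 22.7, 21.4 and 20.6 FPKM with both, which overlap. After median-ratio scaling 7 of the 9 were lower, beside 721 of 3177 genes of at least 1 FPKM, and DHX38 was no longer called.

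The largest group, 16 helicases of ribosome biogenesis, held 12 that were lower and 4 that were not called, with a median of -0.36. Of genes of at least 1 FPKM 42.7% were lower. DDX21, a nucleolar helicase of rRNA transcription and processing, went from 62.3, 49.5 and 57.7 FPKM to 30.7, 37.8 and 33.8 FPKM, the steepest change of the 16 helicases (-0.71, SE 0.10, adjusted p = 0.00294, limma). Its neighbour and paralog DDX50 on chromosome 10 changed by -0.51, and DDX10 by -0.61. DDX49 (+0.08), DDX51 (-0.10), DDX54 (-0.13) and DDX56 (-0.08) were the members not called. After median-ratio scaling 7 of the 16 were lower and DDX49 was higher, beside 721 and 723 of 3177 genes of at least 1 FPKM. The rRNA-processing factors DHX33 (-0.42), DDX31 (-0.31), DDX47 (-0.27), DDX27 (-0.27) and DHX37 (-0.20) lost the call they had on the deposited scale. Quantile normalization also took the call from DDX52 (-0.54), DDX50 and DDX55 (-0.46) here, from DDX20 and from the splicing helicase DHX35 (-0.46), and left that of DDX47.

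In mRNA export, DDX19A (-0.42) and DDX19B (-0.44), which release mRNA at the nuclear pore, were both lower, while DDX39A was not called at 233, 235 and 238 FPKM with IFNγ and 255, 245 and 242 FPKM with both. Its groups did not overlap, and after median-ratio scaling its change was +0.31 (adjusted p = 0.00857, limma). Of the 2 mitochondrial members DHX30 was lower (-0.19) and DDX28 was not called (-0.07). DDX11, a DNA helicase of sister chromatid cohesion, was lower by a log2 change of -0.23, DDX12P was not called (-0.18), and DDX59 (-0.40), DHX32 (-0.38) and DDX26B (-0.29) were lower. None of these 5 was called after median-ratio scaling, nor was DHX30.

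Genes that work beside these helicases moved both ways, as did genes in general. Of genes of at least 1 FPKM 42.7% were lower and 9.22% higher. Of 16 ribosome biogenesis partners 8 were lower and 1 higher, and of 16 spliceosome partners, EIF4A3 among them, 11 lower and 2 higher. Of 26 mRNA decay genes 16 were lower and 1 higher, and of 4 genes of mRNA export and the exon junction 2 lower and 2 higher. After median-ratio scaling the counts were 7 lower and 4 higher, 6 and 4, 8 and 6, and 0 and 2, in the same order. Of the 3177 genes of at least 1 FPKM, 721 were then lower and 723 higher. The medians of these partner lists were -0.21, -0.37, -0.33 and -0.05, and after median-ratio scaling 0.03, -0.14, -0.10 and 0.18. EIF4A2 (-0.30) and EIF4A3 (-0.33), translation and exon junction helicases, were lower on the deposited scale and not after median-ratio scaling. After quantile normalization EIF4A3 was lower (-0.40, adjusted p = 0.00507, limma) and EIF4A2 was not called. EIF4A1 was not called on any of these scales (-0.03 on the deposited one). The 4 interferon-stimulated helicases were all lower with both agents than with IFNγ, by between -0.50 (DDX60L) and -0.98 (DDX58, the sensor RIG-I), and stayed lower after median-ratio scaling.

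**Figure D3:**
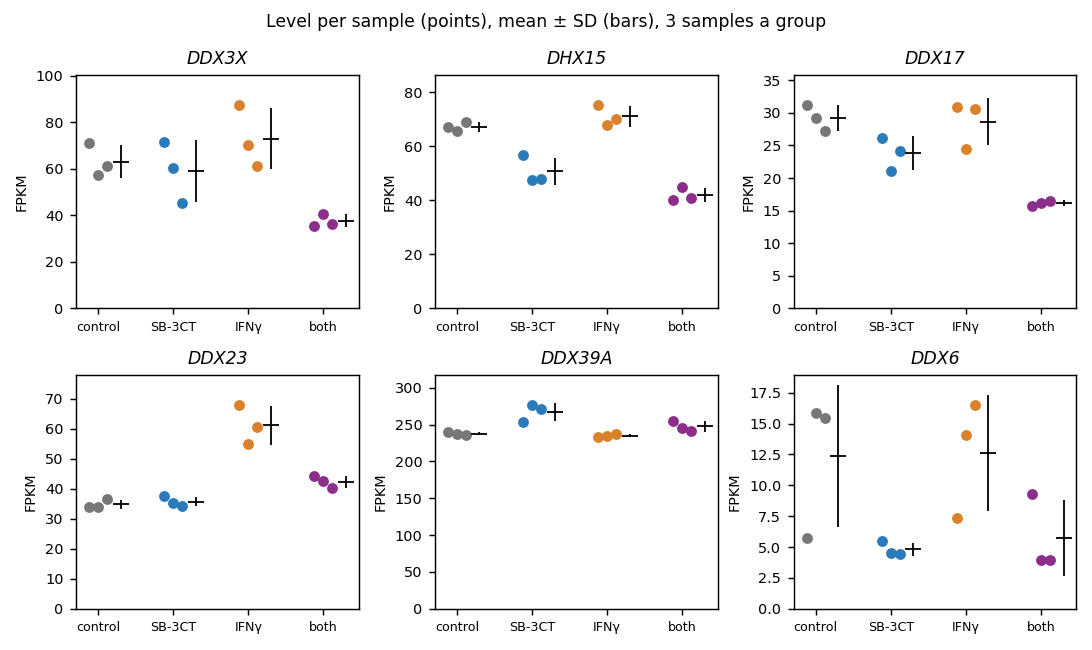
FPKM in each sample of DDX3X, DHX15, DDX17, DDX23, DDX39A and DDX6 (points), with mean and SD (bars) for the 4 groups of 3 samples, where "both" is SB-3CT+IFNγ. DDX3X, DHX15 and DDX17 are lowest with both, DDX23 is highest with IFNγ, DDX39A stays between 233 and 276 FPKM, and DDX6 splits within groups.

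How far a member changed went with the base composition of its transcript. Across the 45 members of at least 1 FPKM, the log2 change with SB-3CT + IFNγ against IFNγ had a Pearson r of 0.82 (Spearman 0.79) with transcript GC content, and across 3154 genes of that level the r was 0.29. These points are genes of the same 12 libraries, not independent replicates, so no p is given. Of the members with under 45% GC, 19 of 20 were lower, of those with 45 to 55% GC 12 of 12, and of those over 55% GC 4 of 13. The shares over all genes of at least 1 FPKM in the same ranges were 59%, 42% and 24.3%. The members called lower had a median GC content of 44.1% and those not called 57.9%, and GC at the third codon position, read from the coding sequence alone, had medians of 43.7% and 78%.

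The same order was seen with SB-3CT alone, where the r with GC content was 0.84 over the members and 0.50 over all genes. This comparison shares no sample with the first. Longer transcripts also had lower values with both agents (r = -0.59 over the members, -0.60 over all genes). When each sample's trend with GC content was removed, a step added once the data had been looked at, 18 members were lower and 2 higher (15.9% and 14.8% of all genes). With the trend with length removed, 16 were lower and 4 higher (9.13% and 9.23%), and DHX30 and DHX37, lower on the deposited scale, were among the higher ones. DDX3X, DHX36, DDX17, DDX46, DHX15 and DHX9 remained lower under both. In all, 12 members were lower on the deposited scale, after median-ratio and quantile scaling, and after either trend was removed, which held for 6.1% of all genes and for 8.5% of those of at least 1 FPKM. The part of GC content and length in the changes was not tested beyond this.

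**Figure D4:**
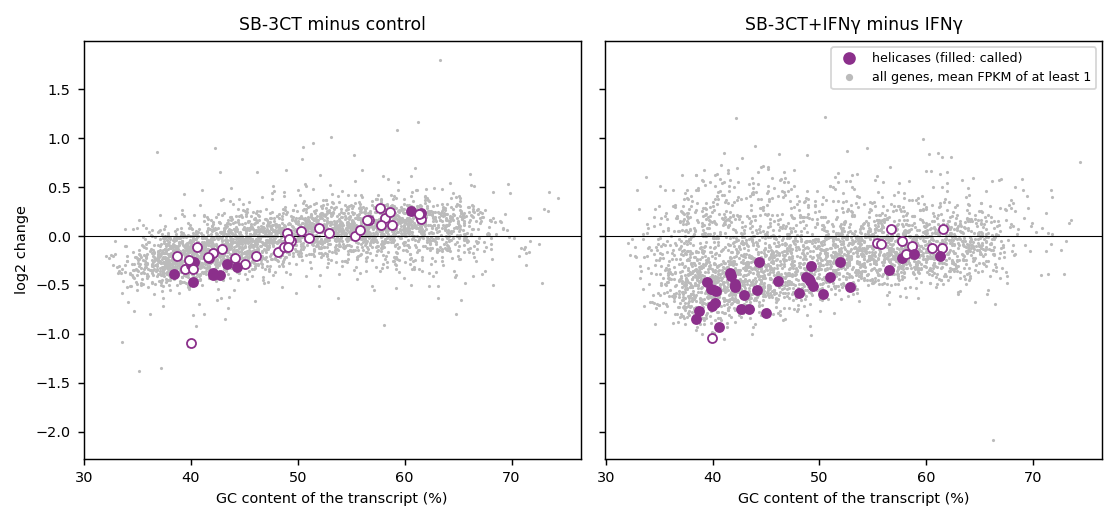
Log2 change of each gene against the GC content of its transcript for SB-3CT minus control (left) and SB-3CT+IFNγ minus IFNγ (right), helicases in purple (filled where the adjusted p is under 0.05) over all genes of at least 1 FPKM in grey. The helicases run from low on the left to near or above 0 on the right in both panels, with r of 0.84 and 0.82.

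SB-3CT alone moved fewer helicases and moved them both ways. Against control 9 members were lower (6.87% of all genes), 2 were higher (5.37%), and the median change was -0.11. All 9 were among the 36 of the 48 members that were lower when the inhibitor was given with IFNγ, a comparison of other samples. The same overlap over all genes was not counted, so nothing is read from it. DHX40, a helicase found with spliceosomes, had the largest called fall, from 12.7, 12.6 and 13.0 FPKM to 10.8, 7.50 and 8.67 FPKM (log2 change -0.47, SE 0.11, adjusted p = 0.0388, limma). DHX15 went from 66.9, 65.5 and 69.0 to 56.6, 47.6 and 47.9 FPKM (-0.40, SE 0.07, adjusted p = 0.0183, limma). In both genes SB-3CT replicate 1 lay nearest to control. DDX50 (-0.40), DHX36 (-0.38), DDX1 (-0.38), DDX47 (-0.31), DDX21 (-0.29), DHX9 (-0.29) and DDX5 (-0.26) made up the rest. With the GC trend removed 2 members were lower (3.07% of all genes), DHX15 (-0.26) and DDX47 (-0.21). The other falls were then -0.27 in DHX40, -0.25 in DDX50, -0.22 in DDX1, -0.16 in DHX9, -0.14 in DHX36, -0.07 in DDX21 and -0.05 in DDX5, without a call. Without SB-3CT replicate 1 the count of lower members was 17, and it was 1 without control replicate 1 and 0 without any other library. The shares over all genes were not counted for these fits.

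The helicases that rose with SB-3CT alone have GC-rich transcripts. DDX54, a ribosome biogenesis factor, was at 43.5, 40.6 and 42.6 FPKM in control and 49.2, 50.2 and 52.1 with SB-3CT (log2 change 0.25, SE 0.04, adjusted p = 0.0183, limma). DHX34 was at 10.5, 9.35 and 9.49 FPKM in control and 12.02, 11.4 and 11.6 with SB-3CT (0.23, SE 0.06, adjusted p = 0.0495, limma). The groups did not overlap in either gene. With the GC trend removed the change of DHX34 was 0.14 and no longer called, and that of DDX54 was 0.15 and still called.

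With IFNγ against control 2 of the 48 helicases were higher (8.46% of all genes) and 4 lower (11%). After median-ratio scaling 5 were higher (11.8%) and 6 lower (10.7%), and after quantile normalization 10 were lower (13.4%). The counts moved with the scaling, and nothing is read from them about the family. DDX23, which exchanges U1 for U6 snRNA at the 5′ splice site, rose from 34.0, 34.0 and 36.7 FPKM to 67.9, 54.9 and 60.8 FPKM (log2 change 0.79, SE 0.08, adjusted p = 0.00173, limma). The IFNγ samples all lay above every control sample. With SB-3CT alone DDX23 was at 37.6, 35.3 and 34.4 FPKM, and with both agents at 44.2, 42.6 and 40.3 FPKM, between the control and IFNγ levels. DDX11 rose by 0.34 (SE 0.08, adjusted p = 0.0292, limma), and the pseudogene DDX12P had a change of 0.29 without a call. DDX27 (-0.33), DDX47 (-0.29), DHX40 (-0.24) and DDX56 (-0.18) were lower, and these 6 calls also held after either scaling. DDX23 kept its call with each sample left out in turn. By contrast the 4 left-out genes rose by 1.12 to 3.11, DDX58 from 0.512, 0.694 and 0.613 FPKM in control to 13.4, 11.5 and 13.6 FPKM.

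Promoters (250 bases before to 50 after the start, RefSeq, GRCh38.p14, first entry of each symbol) were found for 43 of the 48 members. Of 9 motifs searched on both strands, the interferon-stimulated response element, searched as GAAA, any 2 bases and GAAA, was present in DHX15 alone among the members, or 2.33% against 3.65% of 27305 promoters and 2.47% of the promoters of genes in the table. Promoters were found for 3 of the 4 left-out genes, and the element was present in those of DDX60 and DDX60L. The IFNγ change of DHX15 was not called on the deposited scale (0.08) or after quantile normalization (0.14). It was called higher after median-ratio scaling (0.12, adjusted p = 0.0391, limma) and with the length (0.13) or GC trend (0.12) removed. The matches are shown in capitals for this member and for a left-out gene that rose.
DHX15 (chr4:24584745-24584784, minus strand): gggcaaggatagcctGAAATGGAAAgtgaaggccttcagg
DDX60 (chr4:168318781-168318820, minus strand): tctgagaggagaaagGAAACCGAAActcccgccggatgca
CCGGAAG, a site of ETS factors, was the most frequent of the 9 in the members, in 19 (44.2%) against 10.7% of all promoters and 15.6% of those of genes in the table. Among the other motifs CACGTG was in 8 members (18.6%, against 7.43% of all promoters and 10.2% of those of genes in the table), and TGACGTCA was in 5 (11.6%, against 1.98% and 2.79%). ACTACA was also in 5 (11.6%, against 8.95% and 8.62%). GCGCA with GCGC 2 bases after it was in DHX9 (1.09% and 1.57%), AAGATGGCG in DDX23 and DDX47 (1.85% and 2.85%), and neither CTCTTTCC (3.09% and 3.22%) nor TGATGNAA (3.67% and 1.66%) in any member. A match is a description of letters, not a bound site.

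Whether the inhibitor's effect differed with IFNγ was tested directly in a fit over all 12 samples. The SB-3CT change was lower with IFNγ than without it for 23 of the 48 members and higher for 0 (17.6% and 4.74% of all genes). Of genes of at least 1 FPKM, 25.6% were lower. The median difference was -0.33 over the members, -0.09 over all genes and -0.19 over genes of at least 1 FPKM. With median-ratio scaling the members' median was -0.14. After median-ratio scaling 4 members kept the call (DDX23, DDX24, DHX8 and DHX38, against 5.59% of all genes), and after quantile normalization 8 were lower (7.02%). Of the 3177 genes of at least 1 FPKM, 253 were lower after median-ratio scaling and 328 after quantile normalization. The count of 4 members is near that share, so nothing is read from it about the family. DHX8 had the smallest adjusted p of the members. It was at 20.1, 18.4 and 18.8 FPKM in control and 19.6, 19.2 and 20.4 with SB-3CT, which overlap, but at 23.5, 19.1 and 22.2 with IFNγ and 14.2, 13.9 and 13.8 with both. Its SB-3CT change was 0.05 without and -0.59 with IFNγ, a difference of -0.64 (SE 0.09, adjusted p = 0.00358, limma). In DDX23 the difference was -0.55 (SE 0.10, adjusted p = 0.00614, limma).

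DDX3X had the largest difference, -0.81 (SE 0.23, adjusted p = 0.0261, limma). It was at 71.0, 57.2 and 61.0 FPKM in control and 71.6, 60.2 and 45.2 with SB-3CT, and these overlap. After DHX8, those of DDX46 (-0.56), DDX23, DHX38 (-0.52) and DDX11 (-0.51) came next. For DHX40, lowest of the called members with SB-3CT alone, the difference was -0.08 and was not called. Unlike the changes themselves, the difference had an r of only -0.02 with GC content across the members, but one of -0.55 with transcript length (-0.49 over all genes). With the length trend removed 2 members, DDX23 and DHX8, kept the call, beside 3.74% of all genes and 174 of the 3177 of at least 1 FPKM.

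**Figure D5:**
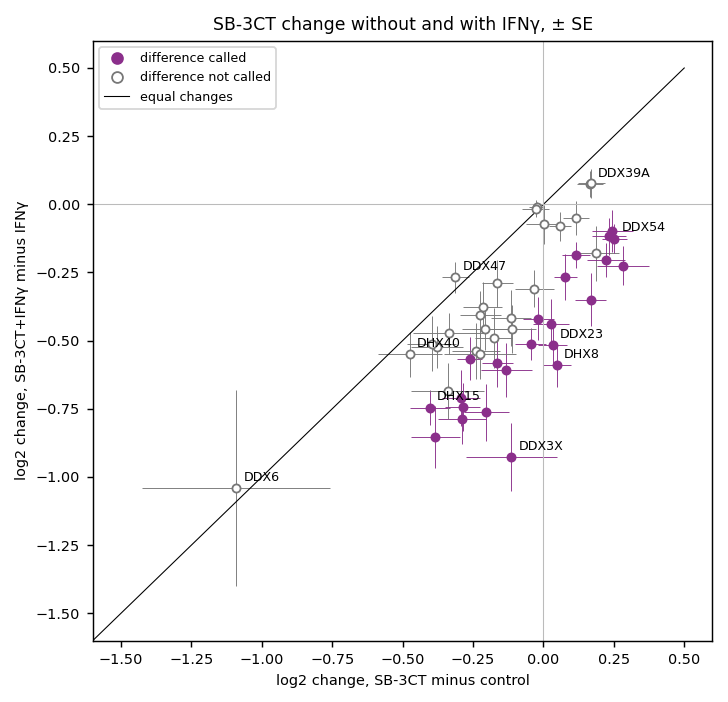
Log2 change with SB-3CT in cells without IFNγ (x axis) and with IFNγ (y axis) for the 48 helicase genes, with standard errors. Filled points differ between these conditions in the fit over 12 samples (23 genes, all below the line of equal changes on the deposited scale, 4 of them called after median-ratio scaling).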

How the data were processed

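RNA of 12 A375 samples was measured, 3 in each of 4 groups named by the labels. Per the labels and the study's methods, the authors aligned paired reads to hg19 with HISAT2 2.0.5, computed FPKM with StringTie 1.3.3 and deposited log2(FPKM + 1). The planned tests took log2 of FPKM, a step that was dropped because the values already were log2. FPKM was regained as 2 to the power of the deposited log2 value minus 1. No counting error can be given without the depth, and changes of low genes are understated on this scale.

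Comparisons used limma 3.58.1 (R 4.3.3, variance trend, unpaired, 3 + 3 samples, and 12 samples for the difference of differences), with Benjamini-Hochberg adjustment over 4918 genes. The functions were tested on simulated data. Transcript length and GC content came from GENCODE release 44 on GRCh37 (Ensembl canonical transcript, or the longest), with 99.13% of genes matched and all 48 members. Trends with length or GC were removed by a lowess (span 0.5) on genes of at least 1 FPKM.

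The members, role lists and partner lists were chosen with earlier results of these data known, and are hand-written. Members named with their values in each sample had the up to 6 largest rises and falls among called, non-overlapping members of at least 1 FPKM, one of the 5 highest levels, or the largest change of their role list. Members whose call changed with scaling, the 4 left-out genes and EIF4A1 to EIF4A3 were named too. DDX24, the samples of DDX41 and DDX54, the motifs and the sequences shown were chosen after values were seen, and 1 motif beyond the 9 is not reported here. Alternatives were a pseudocount of 0.1, a mean of at least 1 FPKM, median-ratio and quantile scaling, 1 fit of all groups, a replicate block, eBayes without trend or robust, length or GC trend removed, the study's fold change of 1.5 with unadjusted p, and each sample left out.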

Additional observations from a re-analysis of the deposited data

Results flagged for a closer look

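For 23 helicases the change with SB-3CT differed between IFNγ-treated and untreated cells, by the test of the difference over 12 samples (limma, adjusted p under 0.05). Each difference was negative, as the values below give it on the log2 scale (change with IFNγ minus change without). In this direction 17.6% of all genes were called, and 25.6% of those of at least 1 FPKM. DDX3X (-0.81), DHX8 (-0.64), DDX46 (-0.56), DDX23 (-0.55), DHX38 (-0.52), DDX11 (-0.51) and DDX17 (-0.50) had the largest differences. DDX10 (-0.48), DHX36 (-0.47), DDX24 (-0.47), DDX19B (-0.47), DHX9 (-0.46), DHX37 (-0.43), DDX42 (-0.42), DDX21 (-0.42) and DDX19A (-0.40) followed. The smallest were DDX54 (-0.38), DHX34 (-0.35), DDX27 (-0.34), DDX51 (-0.34), DHX15 (-0.34), DDX5 (-0.30) and DHX30 (-0.30). After median-ratio scaling the called difference was -0.44 in DHX8, -0.35 in DDX23, -0.32 in DHX38 and -0.27 in DDX24. Of the 3177 genes of at least 1 FPKM, 253 were lower after that scaling.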

How the results depend on the processing

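The falls of DDX3X, DHX36, DDX17, DDX46, DHX15 and DHX9 with SB-3CT + IFNγ against IFNγ kept direction and call under every alternative run. Of the 6 members named for the IFNγ comparison 1 kept its call throughout, as did 1 of 6 named for the difference and 0 of 8 named for SB-3CT against control. Over all named results the fold change threshold cost 17 calls, leaving out a control library 11 to 13, and the direction of none of them reversed. Outside these, DHX30 and DHX37, lower with SB-3CT + IFNγ against IFNγ (-0.19 and -0.20), were higher with the length trend removed (0.17 and 0.19). Depth is unknown, so a low count of calls is not read as no change.

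With SB-3CT + IFNγ against IFNγ, members lower (36) numbered 16 with the length trend removed (summed FPKM kept or centred, 9.13% of all genes when centred). They numbered 21 after quantile normalization (14.5%), 18 with the GC trend removed (15.9%), and 11 at a fold change over 1.5 with unadjusted p (6.51%). Members higher (0) numbered 2 after median-ratio scaling (15.5%) and with the GC trend removed (14.8%). They numbered 4 with the length trend removed in either way (9.23% when centred). With each library left out, between 27 and 36 were lower and 0 higher.

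With SB-3CT against control, members higher (2) numbered 7 among genes of at least 1 FPKM and in 1 fit of all groups. They numbered 6 with the length trend removed in either way (8.34% of all genes when centred). After either scaling they numbered 5 (6.97% median-ratio, 7.04% quantile), with the GC trend removed 1 (3.11%), and by fold change 0 (0.427%). Members lower (9) numbered 2 with the GC trend removed (3.07%) and 1 by fold change (0.569%). With each library left out, 0 to 17 were lower and 0 to 3 higher.

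With IFNγ against control, members higher (2) numbered 5 after median-ratio scaling (11.8% of all genes) and with the length (centred, 13.2%) or GC trend (12.6%) removed. They numbered 4 in 1 fit of all groups and 1 by fold change (3.21%). Members lower (4) numbered 11 where the length trend was removed and summed FPKM kept, and 10 after quantile normalization (13.4%). They numbered 0 by fold change, where 76 of all genes (1.55%) were lower. With each library left out, 1 to 4 were higher and 1 to 6 lower.

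For the difference, members lower (23) numbered 2 with the length trend removed in either way (3.74% of all genes when centred). They numbered 4 after median-ratio scaling (5.59%), 8 after quantile normalization (7.02%), 9 with the GC trend removed (6.75%) and 2 by fold change (2.22%). With the GC trend removed 1 was higher (8.66%). With each library left out, 14 to 28 were lower and 0 higher. The causes of these shifts were not tested beyond the construction of each alternative.

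Samples with the same replicate number had deviations from their group means that correlated at only -0.07 to 0.17 between the groups compared. This cannot show whether same-numbered samples were handled together, and the main fits were unpaired. With the replicate block, 32 members were lower with SB-3CT + IFNγ against IFNγ, 4 lower and 1 higher with SB-3CT, 3 lower and 2 higher with IFNγ, and 21 lower for the difference. The share of all genes called was not counted with this block, with a library left out, in 1 fit of all groups, or with summed FPKM kept. It was also not counted in the fit of genes of at least 1 FPKM. Nothing is read from those member counts about the family.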
